A study of Mus musculus with 4 samples.

Results

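The angiopoietin and Tie receptor genes form a small signalling system of blood vessels, and 5 of its genes are described here: the receptors Tek and Tie1, the ligands Angpt2 and Angpt1, and the phosphatase gene Ptprb. They were found by gene name in the 2 deposited tables, and all 5 were listed in both, among 14100 genes that both tables list. RNA was sequenced from endothelial cells of the C57BL/6 mouse brain, taken at embryonic day 18. The genotype STINGECKO is by its name an endothelial knockout of STING, an adaptor that relays the sensing of cytosolic DNA, and its 2 libraries are called ECKO 1 and ECKO 2 below, as labelled. The other genotype, wild type, also has 2 libraries, WT 3 and WT 5. The comparison asked which genes differ between these genotypes. The sources used here give neither the Cre driver, nor how the cells were isolated, nor whether animals were pooled. They do not state that the libraries of a genotype are of different embryos. The ECKO libraries differed in the sex-linked genes given below, so they are not repeats of 1 sample, while for WT the spread may be technical, and p-values cover only the spread among these 4 libraries.

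Tie2, the protein of Tek, is a receptor tyrosine kinase of endothelial cells. Angiopoietin-1 activates it and steadies vessels, while angiopoietin-2, which endothelial cells make themselves, mostly acts as a context-dependent antagonist at sprouting or destabilised vessels. Tie1 is a related receptor that binds no angiopoietin strongly on its own and modulates Tie2, and VE-PTP, the protein of Ptprb, removes phosphate from Tie2 and from VE-cadherin complexes. Signals of Tie2 run through PI3K and Akt, which keep the transcription factor FOXO1 out of the nucleus, and Angpt2 is a known FOXO1 target.

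Libraries held 18610298 to 22169261 listed reads. Levels are in CPM, which puts each gene's reads on a common scale of library size (with TMM factors), and 1 read was worth 0.0458 to 0.0544 CPM. The targeted gene Tmem173 (Sting1) had 67 and 182 reads in the libraries labelled ECKO, beside 97 and 130 in those of WT, so it did not separate the labels, and every direction below rests on them. All 14 endothelial markers had reads in every library, from 49.8 to 12559 CPM, with summed levels of 31334 and 29730 CPM in ECKO 1 and 2 and of 31203 and 30636 in WT 3 and 5. ECKO 2 stood apart, with 13.2% of the 14100 genes at 0 reads against 2.39% to 5.25% elsewhere. WT 5 stood apart in macrophage and microglia markers, whose summed level was 1654 CPM there against 572, 419 and 570 in ECKO 1, ECKO 2 and WT 3. ECKO 1 stood apart in sex-linked genes. Xist, the RNA of the inactive X chromosome, had 0 reads in ECKO 1 and 876, 2347 and 3374 in ECKO 2, WT 3 and WT 5, while Ddx3y, which lies on the Y chromosome, was read 3623 times in ECKO 1 and 0 times in WT 3. ECKO 1 thus differed in sex from ECKO 2 too. How these features bear on the genes below was not tested beyond the values given beside them.

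Both receptor genes lie on chromosome 4 (positions as the tables give them, those of GRCm38): Tek (ENSMUSG00000006386) from 94739289 to 94874976 on the plus strand, and Tie1 (ENSMUSG00000033191) from 118471191 to 118490061 on the minus strand. Their longest coding transcripts each have 23 exons, spread over 135.7 kb in Tek and 18.9 kb in Tie1. RefSeq (GRCm38.p6) gave a promoter for 2 of the 5 members, Tek and Tie1, and the sequence before each start is shown for these. Any bearing of the sequence on the levels below was not tested. Capitals mark GGAA on either strand (TTCC when read on the other), the core of ETS factor sites. ETS factors drive many endothelial genes.
Tek, chr4:94739039-94739288, plus strand: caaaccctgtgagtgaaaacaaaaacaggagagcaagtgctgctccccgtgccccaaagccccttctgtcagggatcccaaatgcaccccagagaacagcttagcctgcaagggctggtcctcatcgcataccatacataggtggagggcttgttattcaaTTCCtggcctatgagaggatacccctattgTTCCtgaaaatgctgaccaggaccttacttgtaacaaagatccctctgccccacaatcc
Tie1, chr4:118490062-118490099, minus strand: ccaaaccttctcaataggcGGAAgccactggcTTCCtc
For Tie1 only the 38 bases outside GENCODE exons are shown, since 212 of the 250 bases before the RefSeq start lie in an exon of a longer transcript. The Tek window held 2 matches and the whole Tie1 window of 250 bases held 7. Of 32841 windows of that length, 93.5% held at least 1 match, 76.8% at least 2 and 3.82% at least 7. A match is a description of the letters and not a site.

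Tek was at 351 CPM in ECKO 1, 270 in ECKO 2, 361 in WT 3 and 346 in WT 5. ECKO 2 alone was low, and the genotypes overlapped. The means were 311 ± 57.5 CPM in ECKO and 354 ± 10.6 in WT (SD, n = 2 each), and the log2 fold change was -0.19 (SE 0.22, edgeR quasi-likelihood test, Benjamini-Hochberg adjusted p = 1.00). Without ECKO 2 it was -0.01.

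Tie1 was at 565 CPM in ECKO 1, 474 in ECKO 2, 529 in WT 3 and 535 in WT 5. The highest and the lowest library were both ECKO, with the WT libraries between them. The log2 fold change was -0.04 (SE 0.19, edgeR quasi-likelihood test, adjusted p = 1.00). Its sign turned when libraries were scaled to the endothelial markers (0.02) and without ECKO 2 (0.09). Under the endothelial scaling the median of all genes moved too, from -0.02 to 0.03. Relative to that median Tie1 was at -0.01 in both fits.

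In both receptor genes the WT libraries lay close together. They differed 1.04-fold in Tek, and 85.1% of 1063 genes of like level (a mean within 2-fold) differed at least as much. For Tie1 the WT libraries differed 1.01-fold, which 95.4% of 583 genes of like level reached or passed. The ECKO libraries differed 1.30-fold in Tek and 1.19-fold in Tie1, and 44.3% and 54.4% of those genes differed at least as much.

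The 2 receptors were also compared within each library, where scaling plays no part. There were 0.622 and 0.570 Tek reads per Tie1 read in ECKO 1 and 2 and 0.682 and 0.647 in WT 3 and WT 5. The genotypes did not overlap, and the log2 ratio was lower in ECKO by 0.16 in the mean. An exact two-sided permutation test gave p = 0.333, the smallest that 2 against 2 libraries allow, and 0.889 after adjustment over the 4 ratios tested.

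**Figure D1:**
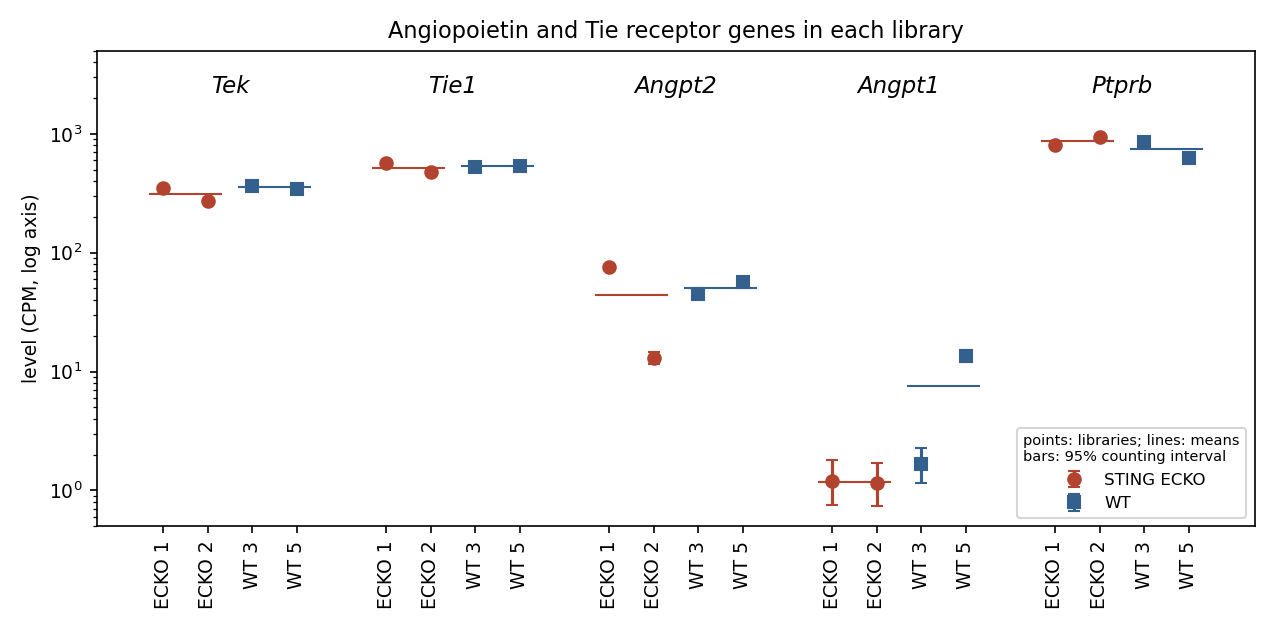
Level of each gene in each library in CPM on a log axis, with circles for ECKO, squares for WT, bars for the 95% exact binomial counting interval (hidden by the symbol where narrow) and lines for the genotype means. Tek, Tie1 and Ptprb lie within narrow bands, Angpt2 is low in ECKO 2 alone (13.0 CPM) and Angpt1 is high in WT 5 alone (13.5 CPM).

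Angpt2 (ENSMUSG00000031465, chromosome 8, 18690263 to 18741562, minus strand, 9 exons in its longest coding transcript) was the ligand gene with the higher level. It had 1382 reads in ECKO 1, 284 in ECKO 2, 970 in WT 3 and 1191 in WT 5. These were 75.1, 13.0, 44.6 and 57.1 CPM, so that ECKO 1 was the highest library, ECKO 2 the lowest, and both WT libraries lay between them. The 95% counting intervals of the ECKO libraries (71.2 to 79.2 and 11.5 to 14.6 CPM, exact binomial) were far apart.

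For the genotype contrast Angpt2 had a log2 fold change of -0.21 (SE 0.85, edgeR quasi-likelihood test, adjusted p = 1.00), with means of 44.1 ± 43.9 CPM in ECKO and 50.8 ± 8.85 in WT (SD, n = 2 each). The sign rested on 1 library: the value was 0.57 without ECKO 2 and -1.98 without ECKO 1, where the median of all genes also moved to -0.20. The ECKO libraries, which also differed in sex, differed 5.77-fold in Angpt2, and 6.57% of 4095 genes of like level differed at least as much. The WT libraries differed 1.28-fold, a difference that 60.3% of those genes reached or passed. Among genes that averaged 20 to 100 CPM elsewhere, 1.41% had 0 reads in ECKO 2 and 0.0213% in ECKO 1.

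Angpt2 lies inside Mcph1, a gene of chromosome condensation on the opposite strand, and shares no exon bases with it. Mcph1 had 228 and 20 reads in ECKO 1 and 2 and 160 and 121 in WT 3 and 5, so its lowest and highest libraries were those of Angpt2. The sources used here give no strand setting for the counting, and the part of Mcph1 reads in the Angpt2 count was not tested.

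The genes most like Angpt2 across the 4 libraries, among 4051 genes of at least 50 CPM, were Azin1, an inhibitor of antizyme in polyamine metabolism, and Tanc1, a scaffold protein. Likeness was the root mean square difference of log2(CPM + 1) after centring each gene, which was 0.09 for Azin1 and 0.10 for Tanc1. Azin1 was at 116 and 20.8 CPM in ECKO 1 and 2 and at 80.4 and 97.6 in WT 3 and WT 5. These 2 were the only genes within 0.1 of Angpt2 (0.0494%), while 139 (3.43%) lay that near Tek and 182 (4.49%) that near Tie1. On this scale the libraries ranged over 2.44 in Angpt2, 0.42 in Tek and 0.25 in Tie1. The bound of 0.1 is the same for all, so these counts cannot be compared between the genes. The nearest to Tek was Hnrnpa2b1, an RNA-binding protein, and the nearest to Tie1 was Wwtr1, the transcriptional coactivator TAZ, each at 0.01.

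Angpt1 (ENSMUSG00000022309, chromosome 15, 42424727 to 42676977, minus strand, 9 exons in its longest coding transcript) was scarce. It had 22 and 25 reads in ECKO 1 and 2, 36 in WT 3 and 282 in WT 5, which were 1.20, 1.15, 1.65 and 13.5 CPM. WT 5 alone was high, and the other 3 libraries had overlapping counting intervals, of 0.750 to 1.81, 0.741 to 1.69 and 1.16 to 2.29 CPM (95%, exact binomial). Pericytes and other perivascular cells are the usual source of angiopoietin-1, and endothelial cells make little.

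Angpt1 was the 1 member of 5 whose genotypes did not overlap, with ECKO lower, as in 18.6% of the 13365 genes tested. Its means were 1.17 ± 0.0359 CPM in ECKO and 7.58 ± 8.39 in WT (SD, n = 2 each), and its log2 fold change was -2.69 (SE 1.65, edgeR quasi-likelihood test, adjusted p = 1.00). Without WT 5 the log2 fold change was -0.50. The WT libraries differed 8.17-fold in Angpt1, and 26.0% of 2728 genes of like level differed at least as much. The antisense gene Gm17473 shares 737 exon bases with Angpt1 and is not analysed here, and reads in that shared stretch cannot be told apart without strand.

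The 2 genes most like Angpt1 were Mrc1, the mannose receptor of border macrophages, and F13a1, the A subunit of coagulation factor XIII, also made by macrophages. Mrc1 was at 24.2 and 21.0 CPM in ECKO 1 and 2, 21.5 in WT 3 and 256 in WT 5. F13a1 was at 39.3, 13.8, 37.9 and 205 CPM in the same order. Their root mean square differences from Angpt1 were 0.39 and 0.53, and no gene of at least 50 CPM lay within 0.1. The libraries ranged over 2.76 in Angpt1 on this scale. The 1 CPM added before the log narrows the range of Angpt1 more than that of these candidates. Genes as scarce as Angpt1 were not candidates.

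Of 12 macrophage and microglia markers, 8 had their highest level in WT 5, among them Cd163 (103 CPM, against 0.381, 0 and 1.24 in ECKO 1, ECKO 2 and WT 3) and Lyve1 (214 against 26.1, 1.05 and 22.5), both genes of border macrophages. The other 4 did not. The microglia gene P2ry12 was lowest in WT 5 (6.61 CPM, against 23.4, 48.0 and 24.3), C1qc and Aif1 were highest in ECKO 2, and Cx3cr1 was highest in WT 3. Cd163 and Ptprc were at 0 reads in ECKO 2. The 13 pericyte and smooth muscle markers summed to 10652 and 11188 CPM in ECKO and 8645 and 7955 in WT, with WT 5 the lowest. Rgs5, a pericyte gene, made up most of each sum (6830, 7238, 5555 and 4845 CPM in ECKO 1, ECKO 2, WT 3 and WT 5). The median marker ran in another order, at 124, 171, 154 and 158 CPM, with ECKO 1 lowest. WT 5 was highest in 2 of the 13 and alone the lowest in 4 (Rgs5, Anpep, Vtn and Ndufa4l2). In Myh11 and Tagln it shared 0 reads with other libraries. ECKO 1 was alone the lowest in Cspg4 and Notch3. Acta2 was at 0 reads in both ECKO libraries. The part of either cell type in the Angpt1 level was not tested. In such bulk samples fewer cells of a type and less RNA per cell cannot be told apart.

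**Figure D2:**
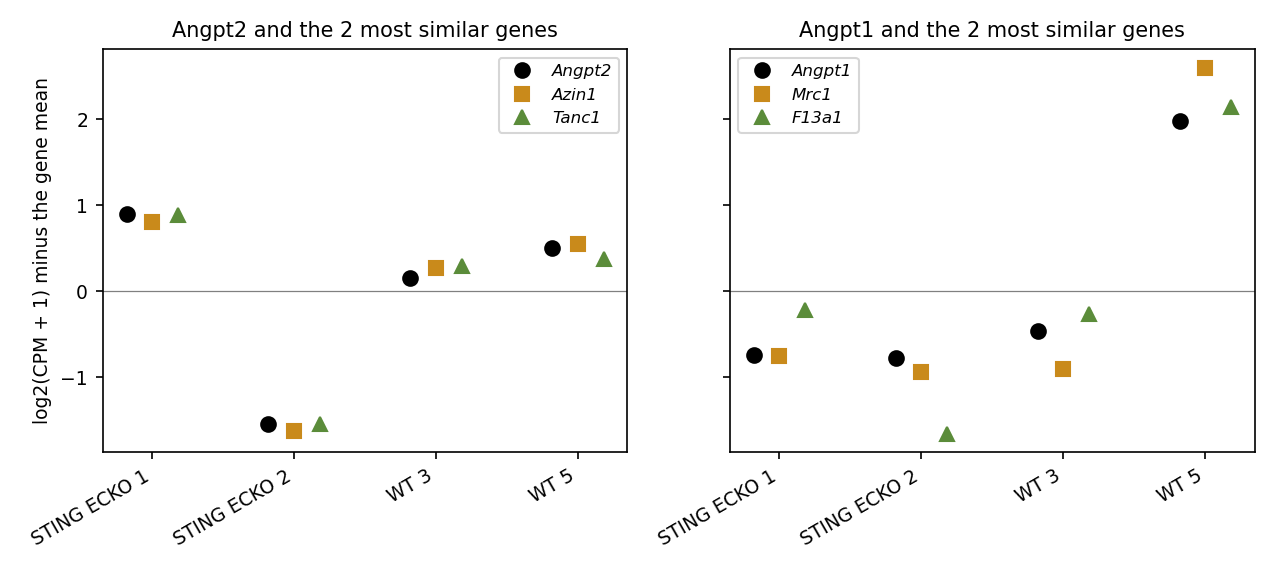
log2(CPM + 1) minus the gene mean in each library for Angpt2 (left) and Angpt1 (right), each with its 2 most similar genes of at least 50 CPM. Angpt2, Azin1 and Tanc1 are all low in ECKO 2, and Angpt1, Mrc1 and F13a1 are all high in WT 5.

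Angpt2 reads outnumbered Angpt1 reads in every library, with 62.8 Angpt2 reads per Angpt1 read in ECKO 1, 11.4 in ECKO 2, 26.9 in WT 3 and 4.22 in WT 5. The genotypes overlapped in this ratio. The log2 difference of 1.32 between them had an exact two-sided permutation p of 0.667 (adjusted over the 4 ratios 0.889), and it was -0.01 without WT 5. Angpt2 reads per Tek read were 0.214, 0.0482, 0.123 and 0.165 in the same order, with ECKO 1 highest and ECKO 2 lowest (log2 difference -0.49, exact permutation p = 1.00). Without ECKO 2 that difference was 0.58.

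Ptprb (ENSMUSG00000020154, chromosome 10, 116275523 to 116389535, plus strand, 34 exons in its longest coding transcript) had the most reads of the 5 genes in every library. It was at 800 CPM in ECKO 1, 949 in ECKO 2, 847 in WT 3 and 631 in WT 5. ECKO 2, the library lowest in Tek, Tie1 and Angpt2, was highest in Ptprb, and WT 5 was lowest. The means were 874 ± 105 CPM in ECKO and 739 ± 153 in WT (SD, n = 2 each), and the log2 fold change was 0.24 (SE 0.22, edgeR quasi-likelihood test, adjusted p = 1.00). Without WT 5 it was 0.05.

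Phosphatase and receptor were set against each other within libraries. There were 2.28 and 3.51 Ptprb reads per Tek read in ECKO 1 and 2 and 2.34 and 1.82 in WT 3 and WT 5. The genotypes overlapped, and the log2 difference of 0.45 had an exact two-sided permutation p of 0.667 (adjusted over the 4 ratios 0.889). The genes most like Ptprb were Unc5b, a netrin receptor of endothelial cells, and Ecscr, an endothelial surface protein, with root mean square differences of 0.01 and 0.03. Unc5b was at 452, 537, 486 and 361 CPM in ECKO 1, ECKO 2, WT 3 and WT 5. There were 97 genes (2.40%) within 0.1 of Ptprb, whose libraries ranged over 0.59 on that scale.

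Levels of different genes were compared per kilobase of exon. Averaged over the 4 libraries, Tie1 was at 107 CPM per kb (96.4 to 115), Tek at 70.5 (57.3 to 76.7), Ptprb at 60.5 (47.3 to 71.2), Angpt2 at 12.9 (3.53 to 20.4) and Angpt1 at 0.841 (0.220 to 2.60). Tek and Ptprb overlapped across libraries, and the other neighbours in this order did not. The place of Ptprb depended on the length used. All its annotated exons span 13.3 kb and its longest coding transcript 7.02 kb, and with the latter Ptprb was at 115 CPM per kb, above Tek at 71.4 and near Tie1 at 129.

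The geometric mean of the 14 endothelial markers was 1038 and 1012 CPM in ECKO 1 and 2 and 1064 and 1069 in WT 3 and 5. It varied so little that levels divided by it repeat the pattern in CPM and give no separate evidence. Relative to it, Tek was at 0.339 and 0.267 in ECKO 1 and 2 and at 0.339 and 0.324 in WT 3 and 5. Angpt2 was at 0.0724 and 0.0129 in ECKO and at 0.0419 and 0.0534 in WT.

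Across the 5 genes, 4 log2 fold changes were below 0 and 1 above, with a median of -0.19 beside -0.02 over all 13365 genes tested. None of the 5 passed the edgeR quasi-likelihood test at an adjusted p of 0.05, and none had an unadjusted p under 0.05. The background was 0 genes called over the whole table (0%), and 650 genes (4.86%) had an unadjusted p under 0.05. With DESeq2 there were 86 calls (0.643%) and with the edgeR likelihood ratio test 33 (0.247%), none of them among the 5. Genotypes did not overlap for 34.2% of all genes in either direction, and for 1 of these 5.

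**Figure D3:**
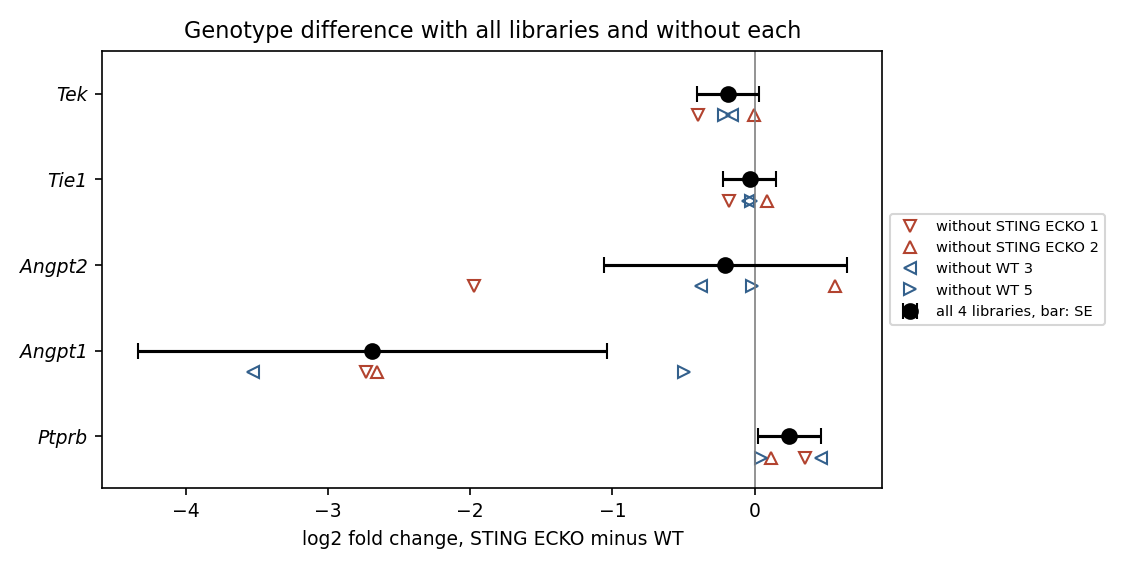
log2 fold change of each gene, ECKO minus WT, with all 4 libraries (black points, bars are the SE) and without each library in turn (open triangles). The values of Tek, Tie1 and Ptprb stay between -0.40 and 0.47, that of Angpt2 moves from -1.98 to 0.57 and that of Angpt1 from -3.53 to -0.50.

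The authors' deposited tables, which compare 1 library with 1 library, gave Angpt2 opposite directions and Angpt1 the same one. For ECKO 2 beside WT 5, the authors' deposited table marked Angpt1 (log2 fold change -3.60) and Angpt2 (-2.17) as lower, along with 35.1% of its genes, and it marked 52.1% in either direction. For ECKO 1 beside WT 3, the authors' deposited table marked none of the 5 genes, where it marked 40.9% of all its genes and 19.4% as lower, and it gave log2 fold changes of 0.72 for Angpt2 and -0.50 for Angpt1. These marks concern single libraries and not the genotypes.

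Other genes of the pathway were taken from 5 lists, of which 40 genes were tested. None passed the edgeR quasi-likelihood test, and 1 had an unadjusted p under 0.05. Of the 40, 22 had log2 fold changes above 0 and 18 below, with a median of 0.06. The genotypes did not overlap in 17 of them, 11 with ECKO higher and 6 lower, where 15.6% and 18.6% of all genes tested did so.

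Among other ligands and angiopoietin-like genes 4 were tested. Angpt4, a further Tie2 ligand, had 16 reads in ECKO 1 and 0 in WT 3, and it was not tested. Angptl4, a secreted inhibitor of lipoprotein lipase, was at 196 and 297 CPM in ECKO and 299 and 343 in WT (log2 fold change -0.38, SE 0.27). Angptl1 was at 14.9 and 0.183 CPM against 3.22 and 0.192, and both libraries of 1 table, ECKO 1 and WT 3, were the higher ones. Angptl6 had 42 and 0 reads against 63 and 87. Its 0 was in ECKO 2, where 36.1% of genes that averaged 1 to 5 CPM elsewhere had 0 reads.

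Of the 9 receptor-proximal adaptor genes 4 were above 0 and 5 below. Tnip2, which encodes ABIN-2, a Tie2-binding inhibitor of NF-kB, was at 33.1 and 29.1 CPM in ECKO and 73.1 and 72.6 in WT. Its log2 fold change was -1.23 (SE 0.40, unadjusted p = 0.0261, adjusted p = 0.971, edgeR quasi-likelihood test), and it stayed between -1.33 and -1.14 without each library in turn. Ptpn11, the phosphatase SHP2, was at 122 and 84.7 CPM against 144 and 155 (log2 fold change -0.53, SE 0.30). Grb14, an adaptor that also binds the insulin receptor, was at 65.1 and 53.5 CPM against 30.8 and 34.4 (0.87, SE 0.43). Dok2, the docking protein of Tie2 that blood cells also express, was named after its values were seen. It had 56 and 0 reads in ECKO, 47 in WT 3 and 785 in WT 5, the library in which Angpt1 was high. In ECKO 2, 15.6% of genes that averaged 5 to 20 CPM elsewhere had 0 reads.

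In the PI3K and Akt list 8 of 9 genes were above 0, with a median of 0.26, and none passed the test. Pik3r1, the regulatory subunit p85 alpha, was at 79.1 and 73.9 CPM in ECKO and 53.4 and 64.5 in WT (log2 fold change 0.38, SE 0.34). Akt1 was at 182 and 216 CPM against 128 and 201 (0.28, SE 0.31), and its value was -0.02 without WT 3. Pik3cb, a catalytic subunit, ranged from 3 reads in WT 5 to 372 in ECKO 2. 

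The 10 transcription factor genes were evenly divided, with 5 above 0 and 5 below. Klf2, a flow-responsive factor that angiopoietin-1 also induces, was at 126 and 138 CPM in ECKO and 101 and 83.6 in WT (log2 fold change 0.51, SE 0.28). Ets1, an ETS factor, was at 1538 and 1360 CPM against 1208 and 1265 (0.23, SE 0.16). Epas1, which encodes HIF-2 alpha, was at 492 and 487 CPM against 640 and 523 (-0.25, SE 0.19). The genotypes did not overlap in these 3 genes, which were named for the smallest p in the list, nor in 5 of its 10 genes in all, beside 34.2% of all genes tested. None passed the test.

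Among Ptprb partners and integrins 4 of 8 genes were above 0. Kdr, the main VEGF receptor, was at 2426 and 2679 CPM in ECKO and 2360 and 1931 in WT (log2 fold change 0.25, SE 0.17). Ctnnb1, beta-catenin of the adherens junction, was at 683 and 553 CPM against 506 and 505 (0.29, SE 0.19), and Itga5, a fibronectin receptor subunit, at 235 and 232 against 156 and 212 (0.34, SE 0.25). Each of these 15 genes named by smallest p within its list had an adjusted p of at least 0.971 in the edgeR quasi-likelihood test.

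**Figure D4:**
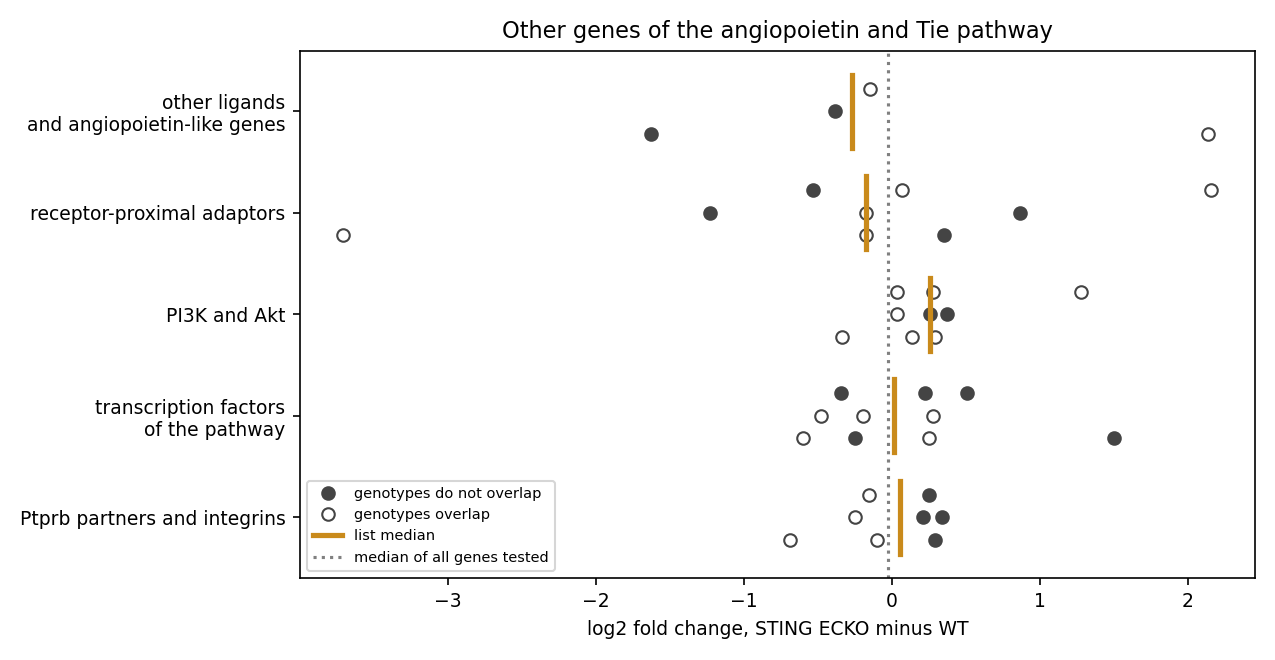
log2 fold change, ECKO minus WT, of the 40 tested pathway genes in 5 lists, filled where the genotypes do not overlap, with list medians (bars) and the median of all 13365 genes (dotted line, -0.02). Each list spreads to both sides of that line, and the lowest point is Dok2.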

How the data were processed

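Per the file headers, the deposited columns are read counts, which are whole numbers for each gene. Each of the 2 tables holds 1 ECKO and 1 WT library. Per the submitters' processing notes, the tools were TopHat2 2.0.12, Bowtie2 2.2.3 and HTSeq 0.6.0, with no roles stated, and the build was mm9. Positions in the tables are nonetheless those of GRCm38 (89.7% of 17858 matched genes identical to GENCODE M21). The authors' deposited CPM columns, their fold ratio, its log2 and their p-values were read only for values credited to them. Genes with reads in both libraries of a table are listed, as are those with 0 in 1 library and 5 or more in the other. List genes not in both tables as used here are not reported, apart from Angpt4.

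The 14100 genes in both tables entered edgeR 4.0.16 under R 4.3.3. Low genes were removed by filterByExpr (minimum count 10), TMM was applied to the listed totals, and the quasi-likelihood test was adjusted by Benjamini-Hochberg over 13365 genes. The script was tested on simulated data in which the libraries of a genotype had equal expected levels. The features that set ECKO 2 and WT 5 apart were not simulated. The SE is the log2 fold change over the root of the F statistic. Exon lengths are from GENCODE M21. Counting intervals cover counting error only, since reads are not independent molecules. Each pathway list gave the 3 genes of smallest unadjusted p to the text, and each of the 5 genes its 2 most similar in pattern. Other fits used limma-voom (limma 3.58.1), DESeq2 1.42.0, the likelihood ratio test of edgeR, further scalings and filters, the deposited table as a block, genes of 1 table entered at 0, and the data without each library. Genes and lists were chosen with earlier results of these data known.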

Additional observations from a re-analysis of the deposited data

How the results depend on the processing

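None of the 5 genes passed the adjusted threshold under any alternative run. Over the alternatives with all 4 libraries the log2 fold change ranged from -0.23 to -0.13 for Tek, -0.07 to 0.020 for Tie1, -0.78 to -0.16 for Angpt2, -2.73 to -1.96 for Angpt1 and 0.20 to 0.30 for Ptprb. Angpt1 has no value under the minimum mean of 5 CPM, which it does not reach. The direction of Tie1 turned when libraries were scaled to the endothelial markers (0.020), where the median of all genes also moved, to 0.033. Without each library in turn the values ranged from -0.40 to -0.01 for Tek, -0.18 to 0.087 for Tie1, -1.98 to 0.57 for Angpt2, -3.53 to -0.50 for Angpt1 and 0.05 to 0.47 for Ptprb, so those of Tie1 and Angpt2 changed sign, both without ECKO 2. The fit without ECKO 1 moved the median of all genes to -0.20, and relative to it Angpt2 was at -1.77 and Tek at -0.19. Log2 ratio differences without each library ranged from -0.012 to 2.66 for Angpt2 to Angpt1, -1.57 to 0.58 for Angpt2 to Tek, 0.14 to 0.77 for Ptprb to Tek and -0.22 to -0.095 for Tek to Tie1. Among the pathway genes named, the sign turned for Angptl1 (-3.19 without ECKO 1, up to 5.25 without WT 3), Pik3cb (-1.64 without ECKO 2, up to 5.92 without WT 3) and Akt1 (-0.018 without WT 3, up to 0.64 without WT 5), and the cause was not tested. Over all genes DESeq2 called 86 and the edgeR likelihood ratio test 33, against 0 in the quasi-likelihood test, and leaving out each library gave 0 (with 162 to 2668 genes at an unadjusted p under 0.05). Leaving out a library leaves its genotype with 1 sample, which is assumed to vary like the other genotype. No paired analysis by replicate number was possible because the genotypes share none. Pairing libraries by deposited table instead, a block by table gave 0 calls in the edgeR quasi-likelihood test, with 277 genes at an unadjusted p under 0.05. Exon length as the longest coding transcript, chosen after seeing the data, gave the other order of Tek and Ptprb described above. Angpt1 rested on 22 to 36 reads in ECKO 1, ECKO 2 and WT 3, whose counting intervals overlapped, and what size of difference this depth could show was not tested.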
